A study of Mus musculus with 46 samples.

Results

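The constructs described here carried a promoter fragment followed by a candidate cis-regulatory element (cCRE), both from the Nanog locus on mouse chromosome 6. A massively parallel reporter assay (MPRA) measured their activity. They were chosen as the constructs that the deposited Upstream table lists in the Nanog library as promoter first and cCRE second, with an activity above 0 in all 3 replicates. Of 1511 such constructs listed, 1450 met this rule, out of 13524 constructs of the Nanog library and 89293 of the whole Upstream table. They combine 16 promoter fragments with 91 cCREs, each fragment on its plus or minus strand of the genome. For 647 of them the same fragments on the same strands were also measured in the reverse order, cCRE first and promoter second.

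The study put pairs of fragments upstream of a barcoded reporter and compared each pair with its single fragments. All values come from E14TG2a, a line of mouse embryonic stem cells kept in 2i and LIF, a medium that holds them in the naive pluripotent state. Nucleofection brought the plasmid pool into the cells, and RNA was collected 24 h later in 3 biological replicates of the mix of Klf2, Nanog and negative control libraries. There was no treated or mutant group. The reporters were plasmids, and the replicates received the same pool. Activity is the ratio of barcodes in RNA to barcodes in plasmid DNA. Barcode and read numbers per construct were not analysed here, and the depth of a value is therefore unknown. The labels do not say which of the fragments lay next to the reporter, so "first" and "second" follow the written order of the table.

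A promoter is the stretch around the start of a gene at which transcription begins. An enhancer is a regulatory element that binds transcription factors and raises the output of a promoter, and it is classically described as working in either order and on either strand. cCREs are regions with chromatin marks of regulatory elements, so some are enhancers and many may not be active in a given cell type. Nanog encodes a homeobox transcription factor that sustains pluripotency, and its neighbour Dppa3 (Stella) is also expressed in naive stem cells. The same locus holds the Clec4 genes, which encode C-type lectin receptors of myeloid immune cells.

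The sequences below are shown because the order difference had one sign for the Nanog promoter and the other sign for the 1700063H04Rik and Clec4e promoters. Each is the RefSeq sequence of the 250 bases before the gene start (GRCm38.p6, the mm10 assembly), written 5′ to 3′ on the strand of the gene, and each lies within its fragment. Capitals mark matches to TTTGCAT (an octamer-like motif of POU factors), ACAATG (a Sox-like motif) or TATAAA (the TATA box), searched on both strands. No match overlaps another.
Nanog, fragment P010, chr6:122707239-122707488, plus strand: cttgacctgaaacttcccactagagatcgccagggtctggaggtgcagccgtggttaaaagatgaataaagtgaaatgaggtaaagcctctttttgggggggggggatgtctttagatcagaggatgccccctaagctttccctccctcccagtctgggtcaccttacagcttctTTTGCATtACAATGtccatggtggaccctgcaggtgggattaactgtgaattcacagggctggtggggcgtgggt
1700063H04Rik, fragment P003, chr6:122391129-122391378, plus strand: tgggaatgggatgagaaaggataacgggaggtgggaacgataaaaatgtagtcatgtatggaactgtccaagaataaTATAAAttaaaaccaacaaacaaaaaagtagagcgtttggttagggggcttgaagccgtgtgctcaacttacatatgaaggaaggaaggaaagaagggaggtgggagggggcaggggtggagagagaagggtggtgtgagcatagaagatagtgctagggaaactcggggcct
Clec4e, fragment P025, chr6:123289872-123290121, minus strand: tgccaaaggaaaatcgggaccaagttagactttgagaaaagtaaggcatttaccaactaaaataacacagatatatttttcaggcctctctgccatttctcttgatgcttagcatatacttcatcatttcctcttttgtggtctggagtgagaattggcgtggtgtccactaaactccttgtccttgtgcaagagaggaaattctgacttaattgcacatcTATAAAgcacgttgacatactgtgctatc
The Nanog window held TTTGCAT 75 bases and ACAATG 67 bases before the gene start. TATAAA stood 173 bases before the start in the 1700063H04Rik window and 29 bases before it in the Clec4e window. Among 32851 mouse windows of the same length, 4.12% held TTTGCAT, 10.7% ACAATG and 12.4% TATAAA on either strand. The GC content was 52.0% in the Nanog window, 46.4% in that of 1700063H04Rik and 39.6% in that of Clec4e, against a median of 52.4% over all windows. A match is a description of letters and does not show that a factor binds.

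The promoter fragments lie on chromosome 6 (mm10 coordinates as the table gives them), and each spans 450 bp. P010 (122707113 to 122707563) contains the start of Nanog and its upstream sequence. P001 lies in M6pr, which encodes a mannose 6-phosphate receptor. P003 contains the start of the noncoding gene 1700063H04Rik. P003 was carried on the minus strand in all 77 of its constructs, opposite to its gene. P004 lies between genes, 11624 bp from Rimklb. P007 contains the start of Apobec1, which encodes an RNA-editing cytidine deaminase. P014 contains the start of C3ar1, the receptor of complement fragment C3a. P016 and P017 overlap by 133 bp at Clec4a1. The fragments P018, P019, P020, P022, P023 and P025 lie at Clec4a3, Clec4a4, Clec4b1, Clec4b2, Clec4n and Clec4e. P002 lies 259 bp from Phc1, a Polycomb gene, and had 2 constructs.

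Alone, few of these promoters exceeded the construct that the table lists as "eempty" in both positions, a label that the sources used here do not explain. Its activity was 0.122, 0.0700 and 0.240 in replicates 1 to 3. Of 29 oriented promoters among the constructs, 6 were above it and 14 below it in all 3 replicates when measured alone. P010 on the plus strand, the sense strand of Nanog, gave 0.789, 0.627 and 0.864 alone, and on the minus strand 0.451, 0.341 and 0.522. Both strands of P010 were above eempty in every replicate. P001 on its minus strand, the only one among these constructs, gave 0.333, 0.278 and 0.415. Its plus strand, which these constructs did not carry, gave 4.69, 4.51 and 3.91 alone. Of 162 oriented cCREs among the constructs, 22 were active alone, here meaning a geometric mean activity of at least 0.5. This cut was chosen after the values were seen, and 3 of 202 oriented cCREs of the library lay within 0.25 log2 units of it.

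Promoter-cCRE constructs ranged from a geometric mean activity of 0.0215 to 9.61. Their median activity was 0.139, 0.0686 and 0.272 in the 3 replicates, close to eempty in each. In all 3 replicates 570 of 1450 (39.3%) were above eempty, 339 (23.4%) by more than 2-fold, and 369 (25.4%) were below it. The median log2 level of −2.96 lay between those of cCRE-promoter constructs (−3.08), promoter pairs (−3.33) and cCRE pairs (−2.70) of the library. Log2 activities of the 1450 constructs correlated between replicates with Pearson's r from 0.87 to 0.88, as a description, since many constructs share a fragment. The 61 constructs left out had replicate 2 at 0 in 51 cases and replicate 1 at 0 in 12, and their highest activity in any replicate was 0.695. The lowest single value kept was 0.0026.

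By promoter, the constructs of P010 stood apart in their typical level. Its 239 constructs ranged from 0.0463 to 8.53 in geometric mean activity, with a median of 0.464. The median was 0.272 for P001 (45 constructs), 0.223 for P007 (47), 0.165 for P019 (24) and 0.141 for P025 (79). It lay between 0.0864 and 0.116 for P003, P004, P014, P016, P017, P018, P022 and P023. P020 (5 constructs) and P002 (2) had medians of 0.128 and 0.554. The highest constructs of other promoters nevertheless reached the P010 range, at 9.61 for P007, 9.31 for P019, 6.32 for P017 and 5.56 for P016. The P007 construct held its plus strand, which alone gave 0.253, 0.213 and 0.397, above eempty in every replicate. The highest construct of P023 (250 constructs) was at 3.50 and that of P022 (187) at 3.47.

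A cCRE in the second position raised activity over the promoter alone mainly where the cCRE was itself active. Of 1450 constructs, 375 were higher (25.9%) and 120 lower (8.28%) than their promoter alone by limma on within-replicate log2 differences, at a Benjamini-Hochberg (BH) adjusted p under 0.05. Over the whole Klf2 and Nanog mix 53.7% of tested pairs were called, 11.6% higher and 42.2% lower. With a cCRE active alone, 213 of 223 constructs were called higher and 0 lower, and the mean log2 difference was 3.60 ± 0.96 (SD, n = 3). With the other cCREs, 162 of 1227 were called higher and 120 lower, and the mean was 0.00 ± 0.07 (SD, n = 3). Without the replicate block limma called 315 constructs (260 higher and 55 lower). Without replicate 1 it called 257, of which 234 were higher.

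Averaged first within each promoter, the difference from the promoter alone was 0.60, 0.95 and 0.56 on the log2 scale in the 3 replicates, a mean of 0.70 ± 0.21 (SD, n = 3). It was above 0 for 15 of 16 promoters. The exact two-sided sign-flip test over the 3 replicates gave p = 0.25, the smallest it can give. With the median in place of the mean over partners the value was 0.38. The single-fragment value is shared by all constructs of an oriented promoter, so these differences are not independent.

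The strongest second fragments were a pair upstream of Nanog. E073 (122702445 to 122702895) and E074 (122702829 to 122703279) overlap by 66 bp and lie 4594 and 4210 bp from Nanog. Alone on the plus strand E073 gave 3.67, 3.84 and 3.50, and E074 gave 4.01, 4.02 and 3.70. After a promoter, E073 raised all 27 of its constructs, with a mean log2 difference from the promoter alone of 4.71 ± 1.08 (SD, n = 3) over 11 promoters. E074 raised all 45 of its constructs, by 4.62 ± 1.06 (SD, n = 3) over 13 promoters. The replicates differed in size, with mean differences of 5.83 and 5.69 in replicate 2 and 3.68 and 3.57 in replicate 3. Against the cCRE alone, the mean log2 difference was −0.08 for the constructs of E073 and 0.06 for those of E074. The constructs thus read on average near the level of the cCRE by itself, but P010 constructs read higher. In pairs measured in both orders, E073 second averaged 2.65 with P010 (2 pairs) and 1.59 with other promoters (14), against 1.83 alone. E074 second averaged 2.18 (4 pairs) and 1.61 (38), against 1.62 and 1.64 alone.

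E064 (122662793 to 122663243), 32522 bp from Dppa3, raised 35 of 35 constructs by a mean of 4.11 ± 1.02 (SD, n = 3). E005, 1850 bp from Phc1, raised 6 of 6 by 4.33 ± 1.15 (SD, n = 3). E134, 7005 bp from Clec4b2, raised 10 of 10 by 3.91 ± 0.97 (SD, n = 3). Against the cCRE alone, the mean log2 difference was 0.05 for E064, −0.27 for E005 and −0.46 for E134. These 5 cCREs had the highest mean differences from the promoter alone of those measured with at least 3 promoters. The lowest mean differences from the promoter alone belonged to E076 (−1.21), E110 (−0.95), E049 (−0.85), E112 (−0.80) and E104 (−0.80). None of the constructs of these 5 was called higher, and 11 of 41 were called lower. Over all constructs 8.28% of the Nanog library and 42.2% of the mix were called lower. P010 constructs made up 92 of the 120 lower calls of the library, and the part of the partner promoter in these calls was not tested. E076 lies 5302 bp from Nanog, and E104 lies in Foxj2, a forkhead transcription factor gene.

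The largest rise was that of P019, a Clec4a4 fragment, on the plus strand before E074 on the plus strand. P019 alone gave 0.123, 0.0600 and 0.252, and the pair gave 10.3, 7.06 and 11.1. Every replicate of the pair was far above every replicate of the promoter alone. The log2 difference was 6.24 ± 0.34 (SE; limma adjusted p = 0.0016). The next largest were P017 with E074 on both plus strands (5.72), P019 plus with E074 minus (5.66), P004 minus with E064 plus (5.62) and P022 minus with E073 plus (5.54). All 5 joined a promoter that was not above eempty in all 3 replicates with E064, E073 or E074, and each kept its call under the 9 alternatives tried for it.

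The Nanog promoter differed from the other promoters of its library when its partner was not active alone. With such cCREs, 92 of 204 P010 constructs (45.1%) were called lower than P010 alone and 39 (19.1%) higher. Over the whole mix 42.2% of tested pairs were called lower and 11.6% higher. The mean log2 difference of these P010 constructs was −0.45 ± 0.16 (SD, n = 3). For the other promoters with such cCREs, 28 of 1023 (2.74%) were called lower and 123 (12.0%) higher, with a mean of 0.09 ± 0.05 (SD, n = 3). Alone, these other promoters averaged a log2 level of −3.30, against −0.76 for P010. A level this low leaves less room for a fall, and the part of this in the contrast was not tested. With cCREs active alone, 33 of 35 P010 constructs were called higher than P010 alone and 0 lower, with a mean of 2.69 ± 0.36 (SD, n = 3).

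The 5 largest falls were all of P010 on its plus strand. Before E133 on the minus strand, P010 gave 0.0750, 0.0118 and 0.137, against 0.789, 0.627 and 0.864 alone. The log2 difference was −3.93 ± 0.66 (SE; limma adjusted p = 0.0085). The other 4 were with E062 plus (−3.34), E080 minus (−2.95), E117 plus (−2.93) and E062 minus (−2.86). All 5 constructs were below eempty in every replicate, except that with E062 plus in replicate 3. The sizes of these falls thus rest on low values. E133 lies 6108 bp from Clec4b2, E062 29267 bp from Dppa3, E080 in Slc2a3, a glucose transporter gene, and E117 1896 bp from Clec4a1. The call for E062 plus was lost under 1 of 9 alternatives (adjusted p from 4.3e-04 to 0.0541 over them).

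Against the second fragment alone, fewer promoter-cCRE constructs were called. Here 265 of 1450 were called, 179 higher and 86 lower, where 34.1% of the whole mix was called, 31.2% higher and 2.99% lower. Averaged within each of 91 cCREs, the log2 difference was −0.05, −0.09 and 0.01 in the 3 replicates, a mean of −0.04 ± 0.05 (SD, n = 3). The exact two-sided sign-flip p was 0.50. P010 constructs made up 142 of the 179 called higher. With cCREs active alone, the mean log2 difference was 1.35 for P010 and −0.37 for the other promoters. With cCREs not active alone it was 1.72 and −0.38. The mean near 0 thus pools P010 constructs, on average above the cCRE alone, with the others, on average below it. With quantile-normalised replicates the calls were 249 higher and 275 lower, so the balance of directions depended on the scaling. Limma called 105 without the replicate block and 80 without replicate 1, with 95 and 78 of them higher.

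The comparison of orders asks whether a pair reads the same when its fragments are exchanged. Over the 647 pairs measured both ways, log2 activity correlated with r = 0.88 and rho = 0.77 between the orders, as a description over pairs that share fragments. By limma with BH over the mix, 112 pairs were higher with the promoter first (17.3%) and 46 were lower (7.11%). In the whole mix 47.5% were called, 5.31% higher and 42.2% lower. The Nanog pairs thus differed from the mix in direction. The median pair differed by 0.16, against −0.71 over the whole mix, most of which is the Klf2 library.

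Averaged within each promoter, the order difference of the Nanog library was 0.37, 0.35 and 0.23, a mean of 0.32 ± 0.07 (SD, n = 3). It was above 0 for 12 of 14 promoters. With zeros kept and a pseudocount of 0.01 the mean was 0.19 ± 0.12 (SD, n = 3). In the Klf2 library, read in the same RNA samples, it was −0.99, −1.05 and −0.77 over 22 promoters. The difference between the libraries was 1.26 ± 0.22 (SD, n = 3), above 0 in 3 of 3 replicates. The exact two-sided sign-flip p was 0.25 for each of these means and for their difference, the smallest possible. The number of Nanog calls was less firm than their direction. BH over the Nanog library alone gave 43 higher and 12 lower, and leaving out replicate 1 gave 21 and 8.

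The order difference had a pattern by both partners. Where a promoter other than P010 was combined with a cCRE active alone, the promoter-first construct was higher in 102 of 110 pairs, of which 70 were called higher and 1 lower. These pairs held 12 cCREs, and most came from E074 (38), E064 (24), E116 (15) and E073 (14). Pairs that share a cCRE are not independent. The 1 pair of E138 went the other way (−1.71) and was the pair called lower. Over the 110 pairs the mean order difference was 1.24, 1.12 and 0.89 in the 3 replicates, or 1.08 ± 0.18 (SD, n = 3). The pair's mean log2 level was 0.81 with the promoter first and −0.28 with the cCRE first, while those cCREs alone averaged 1.15. The promoter-first level was thus nearer to that of the cCRE alone. With cCREs not active alone, the same promoters gave 33 calls higher (8.27%) and 10 lower (2.51%) of 399, with a mean of 0.18 ± 0.06 (SD, n = 3). Over the whole mix 5.31% of order pairs were called higher and 42.2% lower.

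For P010 the mean order difference was near 0 with active cCREs, where single pairs went both ways, and below 0 with the rest. With cCREs active alone, the P010 order difference was 0.01, −0.10 and −0.02, a mean of −0.04 ± 0.06 (SD, n = 3) over 22 pairs, with 3 called higher and 1 lower and an SD over pairs of 0.54. The mean level was 1.94 with P010 first and 1.98 with P010 second. With cCREs not active alone the P010 order difference was −0.51, −0.69 and −0.37. The mean was −0.52 ± 0.16 (SD, n = 3) over 116 pairs. Of these, 6 were called higher (5.17%) and 34 lower (29.3%). The shares were 17.3% and 7.11% over all Nanog pairs, and 5.31% and 42.2% over the whole mix. The 116 pairs averaged −1.24 with P010 first and −0.71 with P010 second, against −0.77 for P010 alone. So P010 in the second position read near its level alone, and in the first position lower.

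Between the promoters other than P010 and P010, the order difference with active cCREs differed by 1.12 ± 0.18 (SD, n = 3), with all 3 replicates between 0.91 and 1.23. Within P010, active and other cCREs differed by 0.49 ± 0.12 (SD, n = 3), from 0.36 to 0.59. The exact two-sided sign-flip p was 0.25 for both, the smallest 3 replicates allow.

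E074 shows the pattern pair by pair. This cCRE and the pairs below were chosen after their values were seen. With P010 on the plus strand, E074 on the plus strand gave 6.72, 6.62 and 5.59 with the promoter first and 6.56, 6.82 and 5.76 with the cCRE first. The replicates of the 2 orders overlap, and the log2 difference was −0.02 (limma adjusted p = 0.944). With P023, the Clec4n fragment, on the plus strand, the same E074 gave 3.47, 3.08 and 3.53 with the promoter first and 1.32, 1.49 and 1.66 with the cCRE first. Here the orders did not overlap, and the difference was 1.18 (adjusted p = 0.0106). P022, the Clec4b2 fragment, on the minus strand before E074 minus gave 2.41, 2.43 and 2.31, against 0.544, 0.695 and 0.845 after it.

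Over the 38 pairs of E074 with promoters other than P010, 35 were higher with the promoter first, and the mean difference was 1.02 ± 0.13 (SD, n = 3). Its 4 pairs with P010 averaged −0.09 ± 0.06 (SD, n = 3), and none was called. E073 repeated this, with 0.90 ± 0.06 over 14 pairs with other promoters and −0.06 ± 0.09 over 2 with P010 (SD, n = 3). E116, 1026 bp from Clec4a1, gave 1.54 ± 0.34 over 15 pairs and −0.14 ± 0.05 over 4 (SD, n = 3). E064 gave 1.18 ± 0.13 over 24 pairs and 0.26 ± 0.03 over 4 (SD, n = 3). With P010 the sign for E064 followed its strand, at 0.86 and 0.93 for the plus strand and −0.28 and −0.48 for the minus strand. The first 2 were called higher and the others were not called.

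Per promoter, the sign of the order difference separated P010 from the weak promoters that were tested. Of the 9 promoters measured in both orders with at least 10 cCREs, 8 were called by limma, where 74.2% of the 31 promoters of the mix were called (25.8% higher and 48.4% lower). P010 had −0.43, −0.60 and −0.31, a mean of −0.45 ± 0.14 (SE; adjusted p = 0.0046) over 138 pairs, of which 40 were higher with the promoter first. P022 had 0.74, 0.78 and 0.54, a mean of 0.68 ± 0.14 (SE; adjusted p = 2.0e-05). P003 had 0.89, 0.59 and 0.53, a mean of 0.67 ± 0.14 (SE; adjusted p = 2.6e-05). Each replicate of P010 was below 0, and each of P022 and P003 above it. Limma gave all 9 promoters the same SE, a value pooled over promoters. Neither this SE nor the p-value measures the spread of a promoter's own replicates. That SD over replicates was 0.14 for P010, 0.13 for P022 and 0.19 for P003. The partner cCREs differed between promoters. Their mean log2 level alone was −2.34 for P010, −1.64 for P022 and −1.48 for P003, and −2.34 for P023. The part of this in the promoter means was not tested.

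P025 (0.46), P023 (0.44), P017 (0.36) and P004 (0.36) were also called higher, and P016 (0.15) was not called. Their SD over replicates was 0.29 for P025, 0.11 for P023, 0.22 for P017, 0.28 for P004 and 0.06 for P016. The per-promoter calls depended on the model. Without the replicate block limma called 0 of the 9, also at an unadjusted p under 0.05, and 5 with a mean trend in the prior variance. Leaving out a replicate gave 2 to 6 calls, with 2 calls, both higher, without replicate 1. The adjusted p of P010 ranged from 6.8e-04 to 0.290 over 9 alternatives and was past the threshold in 7 of them. The remaining 5 promoters had too few cCREs for the test. Among them P001 (M6pr) was carried only on its minus strand, the weaker one alone, though above eempty in all 3 replicates. P001 had −0.83, −0.84 and −0.57, a mean of −0.75 ± 0.15 (SD, n = 3) over 8 pairs. Of these, 5 were called lower and 0 higher.

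Per cCRE, 20 of 57 with at least 3 promoters were called by limma, 14 higher with the promoter first and 6 lower. In the mix 67.5% of cCREs were called, 11.4% higher and 56.1% lower. Of the 14 called higher, 6 were active alone on at least one strand, as were 0 of the 6 called lower and 3 of the 37 not called. The median activity alone was 0.316 among those called higher, 0.107 among those called lower and 0.120 among those not called. The highest means were those of E014 (1.47), E116 (1.19), E064 (1.05), E074 (0.92) and E031 (0.91). E116 had 1.43, 1.21 and 0.92 (adjusted p = 4.0e-05), and E064 had 0.99, 1.18 and 0.97 (adjusted p = 5.8e-05). E014 rested on 1 of its 3 pairs, and its SD over promoters was 3.37. Without the replicate block limma called 0 of 57 cCREs, with 4 at an unadjusted p under 0.05.

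The lowest means were those of E071 (−1.21), E080 (−0.89), E013 (−0.88), E105 (−0.80) and E114 (−0.45). E071 had −0.93, −1.90 and −0.79 (adjusted p = 2.7e-04). Their means were lower with P010 than with the other promoters, at −2.08 and −0.62 for E071 and at −2.06 and −0.10 for E013. Refitted without P010, 10 of the 14 cCREs called higher were called higher again and 3 had too few promoters. Of the 6 called lower, 1 was called again (E130), and 4 had too few promoters. E071 lies 12066 bp from Nanog, E080 in Slc2a3, E105 in Foxj2 and E114 2610 bp from Clec4a1.

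The 5 pairs with the largest order difference below 0 all held P010. P010 plus with E096 plus, a cCRE in Slc2a3, gave 0.246, 0.443 and 0.452 with the promoter first and 3.80, 2.95 and 3.15 with the cCRE first. The orders were far apart in every replicate, and the difference was −3.16 ± 0.33 (SE; limma adjusted p = 0.0048). Neither E096 plus alone (log2 level −3.25) nor P010 plus alone (−0.41) reached the cCRE-first level of 1.71. With E096 turned to its minus strand the sign was the opposite, at 1.39, 1.80 and 1.52 with the promoter first and 0.935, 0.633 and 0.749 with the cCRE first. That difference was 1.04 (adjusted p = 0.0365).

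The others were P010 minus with E071 minus (−3.05), with E114 minus (−2.86), with E114 plus (−2.33) and with E013 minus (−2.28). For E114, P010 on the plus strand gave other values, 0.64 with E114 plus and −0.79 with E114 minus, both called. The pair with E013 minus lost its call in 2 of 9 alternatives (adjusted p from 0.0056 to 0.116). These 9 did not include BH over the Nanog library alone.

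The 5 largest differences above 0 held weak promoters. P004 minus with E064 plus gave 4.22, 4.39 and 4.17 with the promoter first and 0.585, 0.720 and 0.568 with the cCRE first, a difference of 2.78 ± 0.17 (SE; adjusted p = 0.0035). P022 minus with E064 plus differed by 3.02 and with E116 minus by 3.88. The cCRE-first construct of P022 with E116 minus gave 0.0188, 0.157 and 0.152. Its difference was thus 6.22 in replicate 1, against 2.53 and 2.90 in replicates 2 and 3. P023 plus with E014 minus gave 1.60, 1.16 and 1.26 with the promoter first and 0.0270, 0.0076 and 0.186 with the cCRE first. Its difference of 5.30 ± 0.97 (SE; adjusted p = 0.0171) is the largest, and neither fragment alone was above a log2 level of −3.00. The cCRE-first values of this pair lay below eempty in every replicate, so the size of the difference rests in part on very low values. P023 plus with E114 plus differed by 2.74. The P023 pairs and P022 with E116 minus each lost their call in 1 or 2 of the alternatives tried for them. BH over the Nanog library alone was not among these. Over the library it left 43 order pairs called higher and 12 lower.

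Set against the sum of its fragments' activities alone, the Nanog promoter with active cCREs was above the sum in both orders. Log2 of the construct over the sum was 0.66 ± 0.18 with P010 first, above 0 in 19 of 22 pairs, and 0.70 ± 0.23 with P010 second, above 0 in 18 of 22 (SD, n = 3). With the other promoters and active cCREs it was −0.43 ± 0.02 with the promoter first and −1.51 ± 0.17 with the cCRE first (SD, n = 3). There 21 and 7 of 110 pairs were above the sum. Over all 647 pairs the means were −0.97 ± 0.11 and −1.17 ± 0.15 (SD, n = 3). A level that is background in each single construct is counted once per fragment in this sum.

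In promoter-first constructs the level correlated more with the second fragment alone than with the first. Over the 647 pairs the level correlated with the cCRE alone with r = 0.83 and with the promoter alone with r = 0.36. In the reverse order r was 0.58 with the cCRE alone and 0.66 with the promoter alone. The promoter-first construct was closer in level to its second fragment alone than to its first in 329 of the 647 pairs (50.9%), and the cCRE-first construct in 399 (61.7%). In 193 pairs the fragments alone differed by more than 2 log2 units. The promoter-first construct was closer to its second fragment, the cCRE, in 145 of these, and the cCRE-first construct was closer to its second fragment, the promoter, in 83. These are descriptions, since pairs share fragments and most of the 193 have a strong cCRE and a weak promoter.

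Strand mattered for some promoters. In 358 pairs of promoter-cCRE constructs that differ only in the promoter's strand, limma called 64 (58 higher on the plus strand and 6 on the minus), where 26.7% were called over the mix, 18.6% higher on the plus strand and 8.15% lower. P010 was higher on the plus strand, the sense strand of Nanog, in 86 of 100 pairs. The differences were 0.69, 0.81 and 0.66 in the replicates, a mean of 0.72 ± 0.08 (SD, n = 3), with 38 called plus higher and 1 minus higher. P010 alone differed by a like amount, with log2 levels of −0.41 and −1.21. P007, named after its values were seen, was higher on the plus strand by 1.08 ± 0.25 (SD, n = 3) over 15 pairs, although Apobec1 lies on the minus strand. The count depended on the model, with 41 calls without the replicate block and 0 without replicate 1 (68 at an unadjusted p under 0.05).

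For the cCRE's strand, 32 of 504 pairs were called, 14 higher on the plus strand and 18 on the minus, where the mix had 12.7% (7.46% and 5.26%). With BH over the Nanog library alone 0 were called by limma, with 126 at an unadjusted p under 0.05. The balance of directions was not stable, with 52 higher on the plus strand and 37 on the minus under a mean trend in the prior variance, and 23 and 19 with a minimum activity of 0.05. E074 was higher on the plus strand in 21 of 22 pairs, by 0.39 ± 0.07 (SD, n = 3), though no pair was called. E031, in Mfap5, was higher on the minus strand in 7 of 7 pairs, by 1.65 ± 0.77 (SD, n = 3). Alone, E031 was also higher on the minus strand, with 0.880, 0.708 and 0.897, against 0.201, 0.102 and 0.299. Across pairs the spread of the order difference (SD 0.96) was close to that of the promoter-strand (0.85) and cCRE-strand (0.82) differences.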

How the data were processed

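Activities were analysed as the authors deposited them, as a linear ratio of cDNA to plasmid DNA barcodes per replicate. Per the submitters' processing notes, Bowtie2 and the mm10 build were used; how barcodes were counted, filtered and scaled is not given in the sources used here. The 3 replicates are labelled as biological. The 15 other replicate columns of the tables were not used. Columns were matched to samples by library mix and replicate.

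A construct at 0 in any replicate was not used. The main test was limma 3.58.1 (R 4.3.3) on the 3 within-replicate log2 differences, fitted over the whole Klf2 and Nanog mix, with BH adjustment at 0.05. The pairing is by design, since both constructs of a difference were read in the same RNA sample. Means were tested with an exact two-sided sign-flip test over replicates. Means per promoter needed at least 10 cCREs and means per cCRE at least 3 promoters. The error between replicates leaves out differences between barcoded plasmids. The fits were also run on simulated differences drawn independently for each pair. Fragments shared between pairs were not simulated, so these runs cannot check the calls under such sharing. Alternatives were the fit without the replicate block, other prior variances, BH over the Nanog library alone, each replicate left out, a pseudocount of 0.01 with zeros kept, a minimum activity of 0.05, quantile normalisation, medians, and fragments with at least 10 partners. For single named fragments and pairs, BH over the Nanog library alone, medians and the minimum of 10 partners were not among the alternatives.

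The constructs, groups and comparisons were chosen with earlier results of these data known. The text names promoters with at least 10 cCREs, the 5 highest and 5 lowest cCREs, and the 5 largest called pairs in each direction with one sign in all replicates. Items named outside this rule were chosen after their values were seen; this covers P001, P007, E130, the E074 pairs and the strand examples. Sequences are from RefSeq. Tables were made with Python 3.11.15, numpy 2.4.6 and pandas 2.3.3. The values of 1 promoter fragment are not reported here, though it is counted in the totals.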

Additional observations from a re-analysis of the deposited data

How the results depend on the processing

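For the order difference and the difference from the promoter alone, directions held better than counts of calls. Against the cCRE alone they did not. There 67.5% of calls were higher in the main test, 47.5% with quantile normalisation and 90.5% without the replicate block. Without the replicate block, limma called 315 pairs against the promoter alone, 105 against the cCRE alone, 41 for promoter strand and 20 for cCRE strand. It then called 0 cCREs (4 at an unadjusted p under 0.05) and 0 promoters (0 unadjusted) for the order difference, and 111 order pairs, of which 108 were among the 158 of the main test. A mean trend in the prior variance gave 5 promoters, 99 promoter-strand and 89 cCRE-strand pairs. BH over the Nanog library alone gave 55 order pairs, 153 pairs against the cCRE alone, 25 for promoter strand and 0 for cCRE strand (126 unadjusted). Quantile normalisation gave 524 pairs against the cCRE alone and 81 for cCRE strand, with 50.6% of the latter higher on the plus strand, against 43.8% in the main test. Leaving out a replicate gave 29 to 113 order pairs, 257 to 440 against the promoter alone, 80 to 387 against the cCRE alone, 14 to 21 cCREs, 2 to 6 promoters, 0 to 16 promoter-strand pairs and 0 cCRE-strand pairs (76 to 111 unadjusted).

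The mean order difference was 0.19 with zeros kept and a pseudocount, and the mean against the promoter alone 0.38 with medians over partners. The mean against the cCRE alone turned to 0.028 where the lower side had to reach an activity of 0.05, and was −0.23 with medians. The mean order differences of P010 with active cCREs, of P010 with the other cCREs and of the other promoters with active cCREs kept their signs with cuts at 0.25 and 1 and with each replicate left out, as did the 2 groups with active cCREs without E073 and E074 (1.17 for the promoters other than P010). The cause of these changes was not tested. Depth per construct is unknown, and low activities, which vary most between replicates, limit the pairs of weak fragments.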

Other observations

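Order differences were set against the distance between the fragments in the genome, with r = 0.17 and rho = 0.16 over 647 pairs that share fragments. In 124 pairs within 100 kb the mean order difference was −0.07 ± 0.07 (SD, n = 3), with 12 called higher (9.68%) and 15 lower (12.1%). In 523 pairs farther apart it was 0.26 ± 0.03 (SD, n = 3), with 100 higher (19.1%) and 31 lower (5.93%). The shares were 17.3% and 7.11% over all Nanog pairs, and 5.31% and 42.2% over the whole mix. The nearer pairs had more active promoters, with a mean log2 level alone of −2.14 against −2.93, and the part of this in the result was not tested.

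By strand, the mean order difference was 0.22 with both fragments on the plus strand, 0.23 with the cCRE turned, 0.27 with the promoter turned and 0.12 with both turned. The same oriented cCRE gave order differences on the 2 strands of a promoter that correlated with r = 0.53 over 185 pairs. The same oriented promoter gave r = 0.28 over the 2 strands of a cCRE in 186 pairs. Between replicates the order difference of a pair correlated with r from 0.48 to 0.54.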
